A study of Mus musculus with 2 samples.

Results

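Transcripts of 36 genes of the lysosome were compared between mouse embryonic fibroblasts (MEFs), connective tissue cells grown from embryos, that carried both normal copies of Fut8 (Fut8+/+) and MEFs homozygous for its disruption (Fut8-/-). Its product, a Golgi fucosyltransferase, attaches fucose to the innermost sugar of N-glycans. The genes were chosen by name from knowledge of the organelle, with earlier results of these data already known. They comprise 10 glycosidases, 4 sulfatases, 4 lipid hydrolases, 1 phosphatase, 9 proteases, 3 lipid transfer and activator proteins, 3 membrane proteins and 2 components of the sorting machinery, out of 18193 genes read. The labels call the cells a mouse cell line and give no passage, strain or sex. Both cultures grew in the same serum-containing medium, and the labels name no treatment and no allele other than Fut8. Each genotype is represented by 1 Affymetrix array of biotin-labelled RNA, although the design text speaks of 3 cultures of each, so no difference below has a replicate check and no p-value is given. The study set out to compare gene expression between the genotypes.

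Lysosomes are acidic organelles in which glycans, sulfated glycosaminoglycans, lipids and proteins are broken down. Most of their soluble enzymes are N-glycoproteins that receive a phosphorylated mannose tag in the Golgi, are bound there by mannose phosphate receptors and are released in acidic endosomes. Sulfatases need an additional activation step in the endoplasmic reticulum, and several sphingolipid hydrolases need small activator proteins that present the lipid to them. Transcription factors of the TFEB family bind an element built around the E-box CACGTG in the promoters of many genes of the organelle. In fibroblasts the lysosome takes up and degrades matrix collagen and proteoglycans.

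Signals are the deposited intensities, in arbitrary units. Ratios are of Fut8-/- over Fut8+/+ on the log2 scale, centred on the arrays' shared genes, so that Fut8-/- signals are raised by a factor of 1.16. Scaled values under 12.3 were raised to that floor, and a gene was taken as measured where its brighter array reached 39.1. Each gene was read at its brightest probe set. Probe sets of one gene differed in ratio with an SD of 0.40 (5389 genes, within this pair of arrays). What lies behind this spread was not tested, and it says nothing of the variation from culture to culture. The Fut8 transcript read 190.9 on the Fut8+/+ array against 11.7 on the other, which is 14.1-fold lower; whether the probes lie in the disrupted part of the gene was not analysed here. Of 15 fibroblast markers 11 were measured, and the exceptions were Thy1, Dcn, Fap and Lum. Among the 11, 4 were at least 2-fold lower in Fut8-/- (Prrx1 at least 17.9-fold, Fn1 3.25-fold, Col1a1 2.59-fold and Pdgfra 2.26-fold). Pdgfrb was 2.13-fold higher (within 2-fold without centring, at 0.87). Over all measured genes 8.46% were lower and 6.08% higher by at least 2-fold. The other probe set of Fn1 also passed 2-fold (-1.16). Prrx1, Col1a1 and Pdgfra each had another probe set above the floor on both arrays that lay inside 2-fold (-0.83, -0.46 and -0.51). The summed signal of the 15 was 42387 in Fut8+/+ and 35762 in Fut8-/-, the latter before it is raised by the factor of 1.16. The part of these markers in the differences below was not tested. The 4 measured genes of chromosome Y had a median ratio of 5.62, so the cultures also differed in Y-linked transcripts, and genotype and culture cannot be told apart. In RNA from whole cultures, fewer cells of a type and less RNA per cell cannot be told apart.

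Most of the lysosomal genes had like signals on both arrays. Of the 33 measured members, 29 lay within 2-fold. The only 1 that was at least 2-fold higher in Fut8-/- was the lysosomal acid phosphatase gene Acp2, where 6.08% of all 10164 measured genes were higher by that much. The 3 that were at least 2-fold lower were the glycosidase genes Gusb and Man2b1 and the protease gene Tpp1, where 8.46% of all measured genes were lower by that much. Neither count is far from that background. The median log2 ratio over the measured members was -0.20, with quartiles of -0.44 and 0.14, and that over all measured genes was 0.00033, with quartiles of -0.38 and 0.36. The ratio was below 0 for 22 of the 33 members (66.7%) and for 49.9% of all measured genes. It was smaller in size than the probe set SD for 18 members (54.5%) and for 53.5% of all measured genes. Without centring, 4 members were at least 2-fold lower (11.8% of all genes) and 1 was higher (4.08%), with a median of -0.42 beside -0.23 over all genes.

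**Figure D1:**
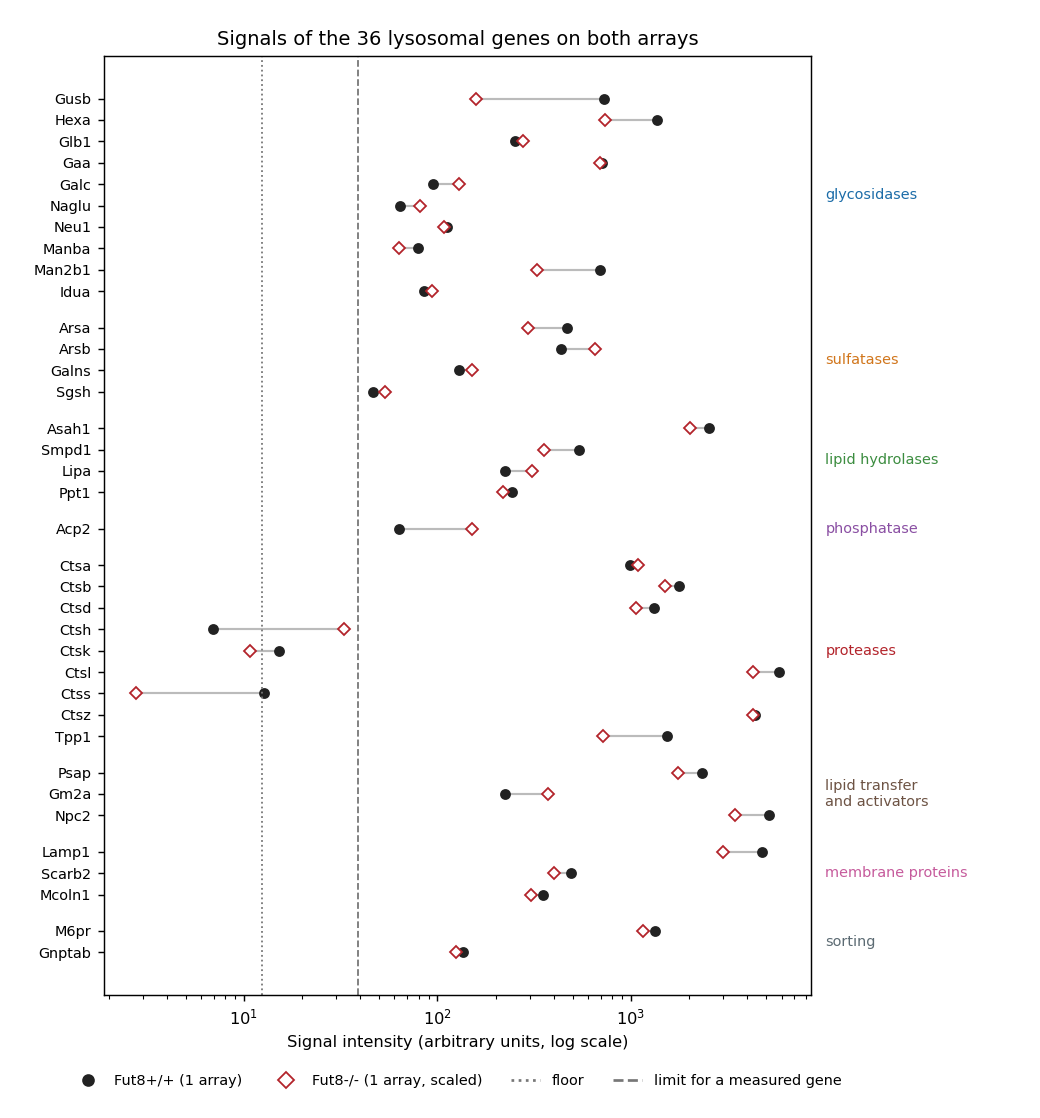
Signal intensity (log scale, arbitrary units) of the brightest probe set of each of the 36 members, by class, on the Fut8+/+ array (filled circles) and the Fut8-/- array (open diamonds, multiplied by 1.16). The dotted line is the floor of 12.3 and the dashed line the measured limit of 39.1; Ctsh, Ctsk and Ctss lie left of the dashed line on both arrays, and the widest gap among the others is that of Gusb. Signals of different genes come from different probes and are not to be ranked against each other.

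Glycosidases take sugars one at a time from the ends of glycans and glycolipids. Gusb, the beta-glucuronidase that acts on glycosaminoglycans, had a signal of 726 in Fut8+/+ and 137 in Fut8-/- at its brightest probe set. It was 4.57-fold lower, a log2 ratio of -2.19. The other probe set of the gene gave 361 and 173, a ratio of -0.84, so both were lower in Fut8-/- and only the brighter one passed 2-fold. Man2b1, the alpha-mannosidase that trims the mannose core of N-glycans, had signals of 695 and 282, which is 2.12-fold lower. Its other probe set was dim and went the other way, with 26.6 in Fut8+/+ and 39.5 in Fut8-/- (ratio 0.79). With the median over both probe sets the Man2b1 ratio was -0.15, so its call rests on the brighter one.

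Hexa, the alpha subunit of the beta-hexosaminidase that degrades GM2 ganglioside, had signals of 1365 and 628, a ratio of -0.90 from its single probe set. Hexa was the 1 member that passed 2-fold without centring alone (-1.12). Manba, the beta-mannosidase, had signals of 79.1 and 54.3 (ratio -0.32). The remaining glycosidases lay close together on both arrays. Gaa, which degrades glycogen, had signals of 706 and 593 (ratio -0.03), and the sialidase gene Neu1 111 and 93.4 (ratio -0.04). For the beta-galactosidase gene Glb1 the signals were 251 and 238 (ratio 0.14). Idua, which removes iduronic acid from dermatan and heparan sulfate, had 85.8 and 80.1 (ratio 0.12). These 4 ratios are within the spread between probe sets, and those of Glb1, Idua and Neu1 took the other sign under at least 1 other setting. Naglu, the N-acetylglucosaminidase of heparan sulfate breakdown, had signals of 63.8 and 69.9 (ratio 0.35). The galactosylceramidase gene Galc had 95.2 and 111 (ratio 0.44), and its other 2 probe sets fell under the floor in both genotypes. The class as a whole therefore held 2 lower genes, 0 higher genes and 8 within 2-fold, with a median of -0.04. That median was -0.25 without centring, and -0.90 over the 5 genes measured with the limit at the 75th percentile.

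Sulfatases remove sulfate groups from glycosaminoglycans and sulfolipids, and all 4 lay within 2-fold. Arsa, which acts on sulfatide, had signals of 469 in Fut8+/+ and 254 in Fut8-/- (ratio -0.67). Arsb, which acts on dermatan sulfate, had 433 and 562 (ratio 0.59), and its 3 probe sets were all higher in Fut8-/-, from 0.28 to 0.81. Arsb lies on chromosome 13, whose 377 measured genes had a median ratio of 0.56. With each chromosome centred on its own median the Arsb ratio was 0.11; the part of the chromosome in it was not tested further. Galns, which acts on keratan sulfate, had signals of 128.8 and 129.2 (ratio 0.22), and the heparan sulfamidase gene Sgsh had 46.2 and 46.0 (ratio 0.21). Without centring these ratios were 0.0042 for Galns and -0.0089 for Sgsh. The median of the class was 0.22, and it lay just below 0 without centring (-0.0024), with the median over probe sets (-0.02) and with the measured limit at the 75th percentile (-0.04).

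Among the lipid hydrolases no gene passed 2-fold. Asah1, the acid ceramidase, had signals of 2523 and 1739 (ratio -0.32). Smpd1, the acid sphingomyelinase, had 541 and 307 (ratio -0.60), and its second probe set was also lower (-0.29). Smpd1 lies on chromosome 7 (median -0.32), and its ratio with each chromosome centred was -0.32. Lipa, which hydrolyses cholesteryl esters and triglycerides taken up with lipoproteins, ran the other way, with 223 and 264 (ratio 0.46). All 3 probe sets of Lipa were higher in Fut8-/-, and the dimmest of them, with 57.7 and 113, had a ratio of 1.19. Ppt1, the thioesterase that removes palmitate from proteins, had 243 and 188 (ratio -0.15), and the other of its bright probe sets had 230.0 and 102 (ratio -0.95). Ppt1 thus read as nearly level or as almost 2-fold lower according to the probe set.

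The small proteins that carry lipids to these enzymes were split in the same way. Gm2a, the activator that presents GM2 ganglioside to beta-hexosaminidase, had signals of 224 in Fut8+/+ and 322 in Fut8-/- (ratio 0.74). Its 3 probe sets were all higher in Fut8-/-, from 0.36 to 1.06. The transcript of Hexa, the enzyme that Gm2a serves, had the opposite sign (-0.90). Psap, the precursor of the saposins, had 2318 and 1498 (ratio -0.41), and its second probe set gave -0.18. Npc2, which hands cholesterol on to the membrane protein NPC1, had 5153 and 2979 (ratio -0.57), with 3 probe sets above the floor between -0.90 and -0.33. Npc2 lies on chromosome 12, where 361 measured genes had a median of -0.38.

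Acp2, the lysosomal acid phosphatase, was the only member past 2-fold in the higher direction. The brightest probe set read 63.7 in Fut8+/+ and 130.5 in Fut8-/-, which is 2.39-fold higher, a ratio of 1.25. A second probe set gave 43.7 and 84.8 (ratio 1.17), and the third 59.7 and 63.5 (ratio 0.31). All 3 were higher in Fut8-/- and 2 of them by more than 2-fold. The gene is dim on both arrays: it was no longer counted as measured when the limit was set at the 75th percentile.

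Among the proteases 1 gene passed 2-fold. Tpp1, the tripeptidyl peptidase that cuts tripeptides from protein ends, had signals of 1538 in Fut8+/+ and 616 in Fut8-/-. It was 2.15-fold lower, with a ratio of -1.10. Its other probe set gave 455 and 147, a ratio of -1.42, so both passed 2-fold. Tpp1 lies on chromosome 7, where the median over 714 measured genes was -0.32; with each chromosome centred on its own median the Tpp1 ratio was -0.82, inside 2-fold. The other 5 measured proteases, all cathepsins, lay within 2-fold. Ctsl, a cysteine protease, had signals of 5828 and 3680.3 (ratio -0.44). It lies on chromosome 13, among genes that were on the whole higher in Fut8-/-, and its ratio after centring each chromosome was -0.92. Ctsd, the main aspartic protease of the lysosome, had 1324 and 914 (ratio -0.32), which is 0.0068 above the chromosome 7 median. Ctsb, a cysteine protease, had 1781 and 1295 (ratio -0.24), but its 4 probe sets above the floor ran from -0.37 to 0.76. Ctsz, a carboxypeptidase, had 4377 and 3690.1 (ratio -0.03), with all 3 probe sets between -0.18 and -0.03. Ctsa, the serine carboxypeptidase that also protects NEU1 and beta-galactosidase in a complex, had 994 and 932 (ratio 0.13, and -0.09 without centring). The signals of Ctsa, Neu1 and Glb1 therefore all lay near level on both arrays.

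The remaining 3 cathepsins were not measured. Ctss, typical of antigen-presenting cells, had signals of 12.7 and 2.39. Ctsk, the collagenolytic protease of osteoclasts, had 15.2 and 9.26. Ctsh, an aminopeptidase, had 6.94 in Fut8+/+ and 28.2 in Fut8-/-; the first is under the floor, and the second is under the measured limit once scaled (32.8). Both of its probe sets were brighter in Fut8-/-, the other with 3.77 and 24.9. Among 15 macrophage markers 3 were measured and 0 passed 2-fold, with ratios of -0.75 for Cd14, -0.24 for Csf1r and 0.92 for Laptm5. The other 12, among them Ptprc, Tyrobp, Aif1 and C1qa, stayed under the limit in both genotypes. The summed signal of the list was 283 in Fut8+/+ and 204 in Fut8-/-, the latter before it is raised by the factor of 1.16. Of 9 osteoclast markers only Nfatc1 was measured, with 173 and 87.8 at its brightest probe set; its 5 probe sets above the floor ran from -0.76 to 0.68.

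Membrane and sorting proteins had ratios below 0 for all 5 genes, also without centring and after quantile or loess normalization, and lay within 2-fold. Lamp1, the heavily glycosylated coat protein of the lysosomal membrane, had signals of 4769 and 2574 (ratio -0.67) from a single probe set. Scarb2, the receptor that carries beta-glucocerebrosidase to lysosomes, had 488 and 345 (ratio -0.28), and its second probe set gave -0.50. Mcoln1, a calcium-conducting channel, had 350.0 and 261 (ratio -0.20), with probe sets from -0.42 to 0.08. M6pr, the cation-dependent mannose phosphate receptor, had 1327 and 992 (ratio -0.20) and a second probe set at -0.36. Gnptab, which encodes subunits of the enzyme that makes the phosphorylated mannose tag, had 136 and 107 (ratio -0.12), with probe sets from -0.37 to 0.47. All 5 brightest probe sets were thus lower in Fut8-/-, 4 of them by less than the spread between probe sets of one gene.

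**Figure D2:**
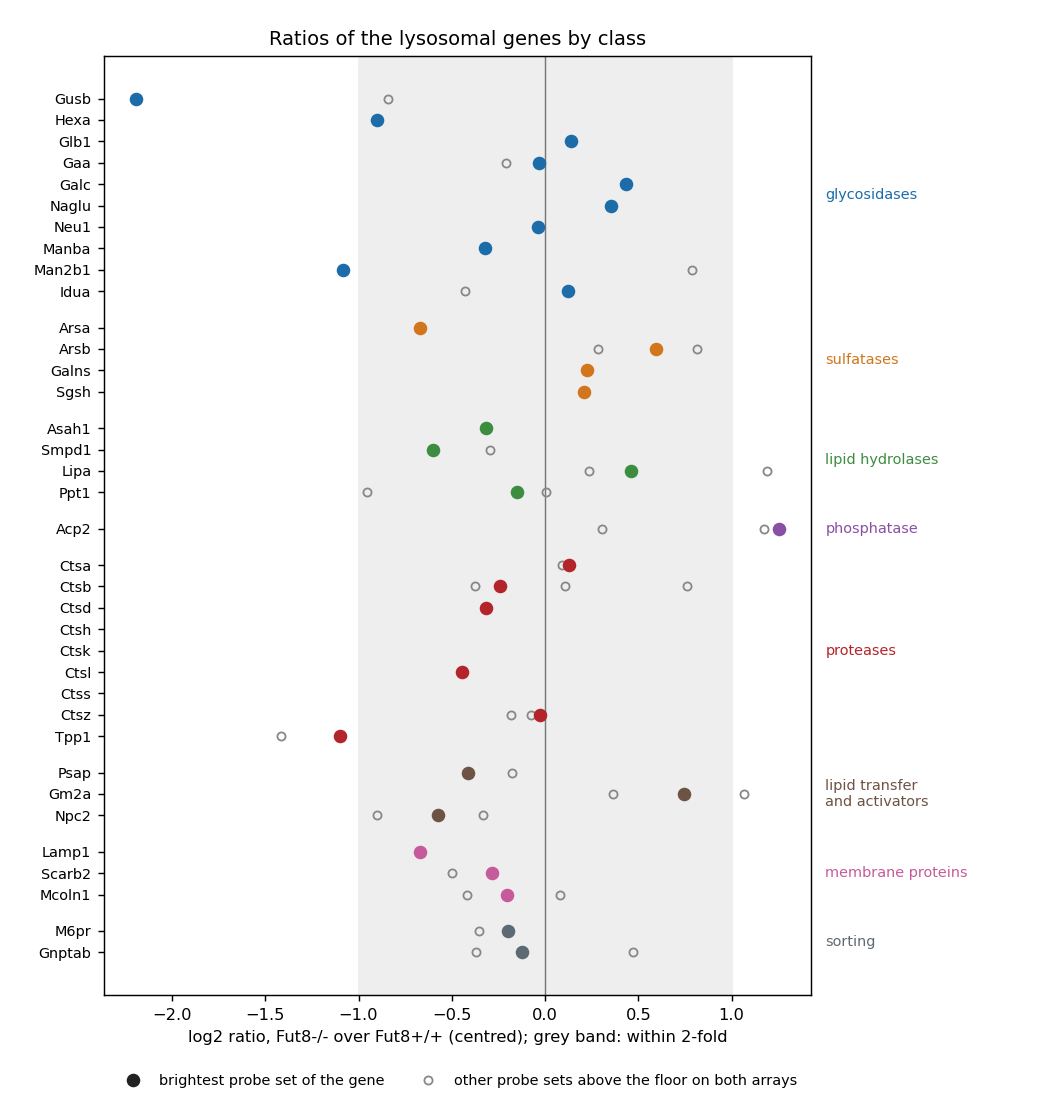
Log2 ratio of Fut8-/- over Fut8+/+ (1 array each, centred) for each member; filled circles are the brightest probe set of a measured gene, coloured by class, and open circles its other probe sets that cleared the floor in both genotypes. The grey band marks less than 2-fold. Gusb, Man2b1 and Tpp1 lie left of the band and Acp2 right of it, while the 2 probe sets of Man2b1 lie on opposite sides of 0.

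Agreement between probe sets differed from gene to gene. On 20 members several probe sets cleared the floor in both genotypes; their ratios shared a sign for 14 of these members and were mixed for 6. The 6 were Man2b1, Idua, Ppt1, Ctsb, Mcoln1 and Gnptab. Of the 4 members past 2-fold, Gusb, Tpp1 and Acp2 had all probe sets on one side of 0.

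The promoters of the members were searched for the E-box, since it is the core of the element bound by TFEB. Windows of 250 bases before to 50 after the start of a gene were taken from RefSeq (GRCm38.p6), and 31 of the 36 members matched by symbol; Galns, Asah1, Ctsb, Ctsh and M6pr were not among them. The letters CACGTG, which read the same on both strands, occurred in windows of 10 of these 31 members (32.3%) and in 7.15% of all 32851 windows. The longer TCACGTGA, which contains it and is also its own reverse complement, occurred in 3 members (Ctsa, Ctsd and Mcoln1; 9.68%) and in 0.974% of all windows. These shares are of unlike units: a member counted once if any of its windows matched, and 2 members had 2 windows. The other share is per window and includes genes that were not measured here. The 10 members with CACGTG were Glb1, Gaa, Naglu, Arsa, Sgsh, Ctsa, Ctsd, Ctsl, Lamp1 and Mcoln1. All 10 lay within 2-fold, as did 8686 of all 10164 measured genes, with ratios from -0.67 to 0.35 and a median of -0.12. The 19 measured members whose windows lack these letters had a median of -0.15 and included all 4 past 2-fold. Whether the letters and the ratios are related was not tested. A match describes the letters of the window and no binding was measured here. The 250 bases before the start are shown for 3 of the genes with the element, Lamp1 at chr8:13158911-13159160 (plus strand), Mcoln1 at chr8:3500269-3500518 (plus strand) and Ctsd at chr7:142387828-142388077 (minus strand), because Lamp1 holds 4 copies and the others 2 each. Each is written 5′ to 3′ on the strand of its gene, with CACGTG in capitals.
Lamp1: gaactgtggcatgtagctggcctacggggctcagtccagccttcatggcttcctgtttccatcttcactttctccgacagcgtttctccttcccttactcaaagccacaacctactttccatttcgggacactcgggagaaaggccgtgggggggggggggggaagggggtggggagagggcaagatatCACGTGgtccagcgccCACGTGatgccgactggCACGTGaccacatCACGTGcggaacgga
Mcoln1: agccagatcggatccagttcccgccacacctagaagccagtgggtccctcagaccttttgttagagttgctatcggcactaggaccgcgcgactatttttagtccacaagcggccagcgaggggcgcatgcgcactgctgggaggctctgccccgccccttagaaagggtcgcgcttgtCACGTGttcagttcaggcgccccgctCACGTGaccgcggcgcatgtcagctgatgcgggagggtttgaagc
Ctsd: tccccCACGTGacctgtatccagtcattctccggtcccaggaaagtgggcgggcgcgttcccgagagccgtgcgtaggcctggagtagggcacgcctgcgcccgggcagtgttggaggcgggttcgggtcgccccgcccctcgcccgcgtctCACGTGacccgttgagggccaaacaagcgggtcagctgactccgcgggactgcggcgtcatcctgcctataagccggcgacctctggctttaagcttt

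The 4 copies of Lamp1 began 61, 45, 28 and 15 bases before the start, and those of Mcoln1 71 and 45 bases before it. The corresponding stretches of the 4 members past 2-fold are shown for comparison, as these carry the differences described above: Gusb at chr5:130003050-130003299 (minus strand), Man2b1 at chr8:85083019-85083268 (plus strand), Tpp1 at chr7:105752236-105752485 (minus strand) and Acp2 at chr2:91202662-91202911 (plus strand). None of them has capitals, because CACGTG is not in these windows.
Gusb: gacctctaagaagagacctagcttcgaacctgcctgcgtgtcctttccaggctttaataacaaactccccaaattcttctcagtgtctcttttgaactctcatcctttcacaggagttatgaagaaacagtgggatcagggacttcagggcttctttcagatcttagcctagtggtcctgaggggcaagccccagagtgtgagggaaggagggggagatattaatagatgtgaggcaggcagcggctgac
Man2b1: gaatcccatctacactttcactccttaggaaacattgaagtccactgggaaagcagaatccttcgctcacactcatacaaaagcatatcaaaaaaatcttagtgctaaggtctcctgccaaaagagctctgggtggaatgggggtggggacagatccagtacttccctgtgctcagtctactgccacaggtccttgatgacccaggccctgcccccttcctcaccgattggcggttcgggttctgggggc
Tpp1: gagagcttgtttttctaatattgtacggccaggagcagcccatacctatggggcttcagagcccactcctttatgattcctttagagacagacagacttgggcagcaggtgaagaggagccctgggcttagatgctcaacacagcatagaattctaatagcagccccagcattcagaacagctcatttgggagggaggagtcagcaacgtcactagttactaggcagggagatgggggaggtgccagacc
Acp2: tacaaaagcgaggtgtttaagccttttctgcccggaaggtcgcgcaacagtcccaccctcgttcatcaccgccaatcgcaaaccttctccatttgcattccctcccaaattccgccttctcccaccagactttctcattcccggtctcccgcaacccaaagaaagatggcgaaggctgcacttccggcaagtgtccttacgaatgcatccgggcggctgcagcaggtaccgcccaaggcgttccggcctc

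Genes next to these 4 on the chromosome were read in the same way, since genes of some chromosomes differed together between the arrays. For each, the 5 nearest measured genes on either side were taken. Acp2 stood among higher genes: 9 of its 10 neighbours had ratios above 0, with a median of 0.61. Nr1h3, the gene directly before it, which encodes a liver X receptor, had signals of 23.2 and 73.9 and was 3.71-fold higher. The proteasome gene Psmc3 had 2038 and 3305 (ratio 0.92), and Ddb2, directly after Acp2, was the 1 neighbour below 0 (-0.34). The median of chromosome 2 was 0.10. The neighbours of Gusb were not shifted, with 5 above 0, 5 below 0 and a median of -0.05; Psph, a serine synthesis gene, was the 1 past 2-fold (-1.49). Around Man2b1 8 of 10 neighbours were below 0, with a median of -0.13. Gpt2, an alanine aminotransferase gene, was the 1 past 2-fold (-2.21). Around Tpp1 7 of 10 neighbours were below 0, with a median of -0.18, and 0 of 10 passed 2-fold. Gusb, Man2b1 and Tpp1 each had a lower ratio than the genes directly beside them on both sides.

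**Figure D3:**
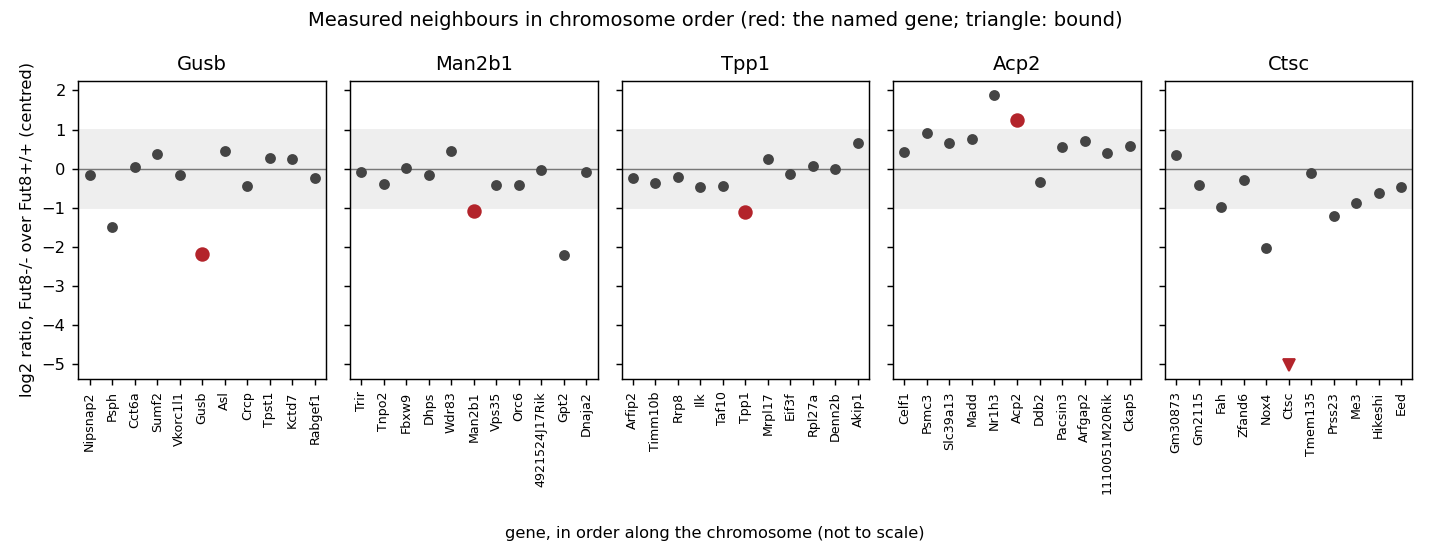
Log2 ratio (Fut8-/- over Fut8+/+, 1 array each, centred) of Gusb, Man2b1, Tpp1, Acp2 and the further protease gene Ctsc (red) and of the 5 nearest measured genes on each side (dark), in chromosome order and not to scale; the grey band marks less than 2-fold and the triangle a lower bound on the difference. Gusb, Man2b1 and Tpp1, chosen for being at least 2-fold lower, lie below the genes directly beside them. Of the 10 neighbours of Acp2, 9 lie above 0.

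A further list of lysosomal hydrolases held more lower genes for its size. Of 25 further hydrolase genes 19 had a probe set of that symbol alone and 17 were measured; 6 were at least 2-fold lower and 0 higher, beside the 8.46% and 6.08% of all measured genes. Their median was -0.92; without centring 9 were lower and the median was -1.14. Ctsc, the dipeptidyl peptidase that activates granule serine proteases, had signals of 401 in Fut8+/+ and 8.94 in Fut8-/-. The second value is at the floor once scaled, which makes Ctsc at least 32.5-fold lower. Of the 10 neighbours of Ctsc on chromosome 7, 9 had ratios below 0 (median -0.55), among them the NADPH oxidase gene Nox4 with 193 and 40.4 (4.10-fold lower) and Prss23 (2.30-fold lower). Ctse, an aspartic protease gene, had 51.6 and 15.1 (2.94-fold lower) but a second probe set at 0.18. Also lower were the prolylcarboxypeptidase gene Prcp, with 212 and 69.5 (2.62-fold), and the alpha-mannosidase gene Man2b2, with 105 and 39.8 (2.27-fold). Aga and Plbd2 were the other 2. Other probe sets of Prcp and Plbd2 lay inside 2-fold (-0.92 and -0.18). A further 3 genes were only just inside 2-fold: Gla (-0.9996, with another probe set at -1.32), Lgmn (-0.93) and Ctsw (-0.92). The difference between the 2 lists of hydrolases was not tested.

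Most genes of the remaining lists lay within 2-fold, as did 8686 of all 10164 measured genes. All 16 measured genes among the other lysosomal membrane proteins did so (median -0.25, -0.47 without centring). The cholesterol exporter gene Npc1, partner of Npc2, had signals of 137 and 67.6 (ratio -0.80, and past 2-fold at -1.02 without centring). The sialic acid exporter gene Slc17a5 had a ratio of 0.76, and Laptm4b and Tpcn2 had -0.52 and -0.43. All 15 measured subunits of the V-ATPase, the proton pump that acidifies the lumen, also lay within 2-fold (median -0.34, -0.56 without centring). Its lowest ratios were those of Atp6v1d (-0.60), Atp6v1g1 (-0.59), Atp6v0b (-0.58) and Atp6v0a2 (-0.57); another probe set of Atp6v0a2 was at 0.76. Sorting and delivery genes had a median of 0.09 (-0.13 without centring) over 25 measured. Of these, 1 was at least 2-fold higher and 0 lower, beside 6.08% and 8.46% of all measured genes. The higher one was Igf2r, the large mannose phosphate receptor, with 130.2 in Fut8+/+ and 310.5 in Fut8-/- (2.78-fold). Its smaller counterpart M6pr was level or slightly lower, as described above. Nagpa, which uncovers the mannose tag that Gnptab starts, had 46.8 and 74.9 (ratio 0.90), and Ap1m1 and Vps18 had 0.67 and 0.64.

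All 16 measured regulators of lysosomal genes, including Tfeb and Tfe3, lay within 2-fold, as did 8686 of all 10164 measured genes. The regulators had a median of -0.05. Mitf had the lowest ratio, with signals of 120 and 55.8 (-0.88, and past 2-fold without centring), whereas Lamtor5 and Lamtor2, which anchor growth signalling to the lysosomal surface, had 0.78 and 0.76, and the kinase gene Mtor had -0.58 at its brightest probe set and 0.19 at another. Of the cathepsin inhibitors 3 were measured, all within 2-fold (median 0.15, -0.07 without centring): Cst3 (0.25), Cstb (0.15) and Cst6, with 88.8 and 42.3 (-0.85, and past 2-fold at -1.07 without centring). In the autophagy list 18 of 19 measured genes lay within 2-fold (median 0.03, -0.19 without centring). The exception was Atg7, the activating enzyme of the conjugation system, with 127 and 45.4, 2.41-fold lower. Ulk1 (0.86), the cargo receptor gene Sqstm1 (0.68) and Gabarapl1 (0.64) were on the other side of 0, although other probe sets of Ulk1 and Sqstm1 reached -0.16 and -0.12.

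**Figure D4:**
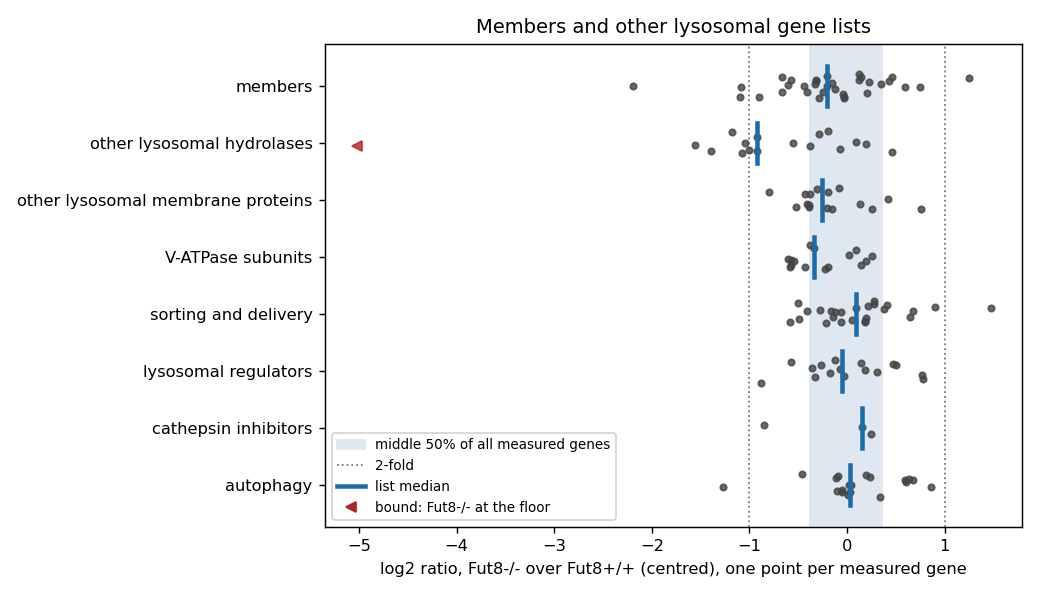
Log2 ratio (Fut8-/- over Fut8+/+, 1 array each, centred) of every measured gene of the members and of 7 other lists of lysosomal genes, with 1 point per gene, the list median as a blue bar and the middle 50% of all measured genes shaded; the dotted lines mark 2-fold. The median of the other hydrolases (-0.92) lies left of the shaded range, that of the members (-0.20) lies inside it, and Ctsc (triangle) is a bound.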

How the data were processed

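Total RNA of Fut8+/+ and Fut8-/- MEFs was labelled with biotin and read on 1 Affymetrix array per genotype; whether an array's RNA came from 1 dish or from several pooled is not stated in the labels. The values are the authors' deposited signal intensity values, linear and 1 per probe set, made with GCOS per the submitters' processing notes; for its version, algorithm and scaling target the sources used here give nothing. Median signals over 45101 probe sets were 20.5 and 16.9.

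Signals were put on the log2 scale (Python 3.11.15, pandas 2.3.3). The median ratio over probe sets above the 40th percentile of each array (-0.22) was subtracted, and scaled signals were floored at the pooled 40th percentile; the measured limit was the 60th. Only probe sets with 1 symbol in the platform annotation were used (34945), and 79 of them read the members. Genes were counted by a fixed 2-fold limit. With 1 array a genotype there is no test, and the number of arrays limits the precision. The steps were tested on simulated data with planted changes well past 2-fold and less noise than the spread between probe sets. That test does not show how well changes near 2-fold are called.

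The members, lists and limits were chosen with earlier results of these data known. All members are named, with up to 4 genes of each other list that had the largest absolute ratios. Chromosome neighbours, Lamp2, listed genes only just inside 2-fold and genes named as unmeasured were chosen after their values were seen. Chromosomes and gene order came from GRCm38.p6. Alternatives were no centring, quantile and loess normalization, other floors, limits and folds, the median over probe sets, centring by chromosome and, added after seeing the data, leaving out chromosomes 7, 12 and 13.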

Additional observations from a re-analysis of the deposited data

How the results depend on the processing

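With 1 array a genotype no replicate could be left out, and the precision of dim genes is limited by signal over background. No paired analysis was possible because each genotype has 1 array and nothing was tested. The median over the members stayed below 0 in all 10 other settings (-0.42 to -0.14), all of which read the same 2 arrays. Both other floors left it at -0.20, since they changed no ratio of a measured member. Without centring, where it was -0.42, the median over all genes was -0.23. Lower members numbered 4 of 33 without centring (11.8% of all genes) and 2 of 33 with the median over probe sets (without Man2b1, 6.86%). They numbered 2 of 33 with each chromosome centred (8.1%) and 2 of 26 without members on chromosomes 7, 12 and 13 (8.46%), both without Tpp1. At a limit of 1.5-fold, 7 of 33 were lower (16.6% of all genes) and 3 higher (14.4%). Higher members numbered 2 of 36 with no filter on the brighter array (4.25% of all genes), the second being Ctsh with Fut8+/+ at the floor. With the measured limit at the 75th percentile they numbered 0 of 24 (4.48%). There the median of the glycosidases was -0.90 over 5 genes in place of 10. Without centring, 1 other membrane protein, 1 regulator and 1 cathepsin inhibitor were at least 2-fold lower, where 0 were with it. The ratio changed sign in at least 1 setting for 6 of the 33 members (Ctsa, Glb1, Idua, Neu1, Ppt1 and Sgsh), and the sulfatase median did so in 3 settings. The spread used to judge whether a value moved was the SD of 0.40 between probe sets.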
